A study of Mus musculus with 2 samples.

Results

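Pi16 and Sema3c mesenchymal progenitors are fibroblast-like cells of the muscle interstitium, here called Pi16/Sema3c progenitors. They were selected on their own UMI counts (UMI, a tag that marks each captured RNA molecule) in 2 droplet-based single-cell RNA-Seq libraries of hindlimb muscle. A barcode entered with 300 to 5000 detected genes, under 20% mitochondrial UMIs and under 0.25% UMIs of genes whose symbols start with Hbb-. It was counted as mesenchymal with at least 1 UMI of Pdgfra, at least 5 of Dcn and at most 1 over Pecam1, Cdh5, Ptprc and Tnmd. Members had at least 3 UMIs over Pi16, Sema3c, Cd248 and Dpp4, and more than over Cxcl14, Mme, Hsd11b1 and Ccl11 and more than over Gdf10, Fst, Igfbp3 and Penk. The rule found 508 members among 2416 mesenchymal cells, 14984 filtered cells and 27838 deposited barcodes. The other mesenchymal groups, set by the same comparison of sums, were 1402 Cxcl14/Mme progenitors and 371 Gdf10/Fst progenitors.

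Both libraries came from female C57Bl/6J mice aged 24 months whose tibialis anterior, gastrocnemius and quadriceps muscles received 3 intramuscular injections within a week. The ATRA+agonist library followed injections of all-trans retinoic acid (ATRA, the active metabolite of vitamin A), CD3254 (an agonist of the retinoid X receptor RXR-alpha) and BMS961 (an agonist of the retinoic acid receptor RAR-gamma). The DMSO vehicle library followed injections of the solvent. Each library pooled the cells of 2 mice, so that there is 1 library per group, no test is possible, and the treatment and the library cannot be told apart. Every interval below is a 95% interval of counting error only and leaves out differences between mice.

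Mesenchymal progenitors of skeletal muscle, often called fibro-adipogenic progenitors, lie between the fibers, produce much of the extracellular matrix and can become adipocytes or matrix-depositing fibroblasts. A population marked by Pi16 and Dpp4 occurs in the connective tissue of many organs, around larger vessels and in fascia, and is regarded as a progenitor state with little commitment to a tissue. Retinoic acid is a ligand of nuclear receptors that bind DNA as RAR/RXR pairs and switch the transcription of neighboring genes.

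The 285 members of the ATRA+agonist library held 2957692 UMIs (per cell, median 9899 UMIs and median 3320 detected genes). In the DMSO vehicle library 223 members held 2099397 UMIs (medians of 9051 and 3085). The deposited matrices summed to 65197625 UMIs over 10444 barcodes and 109343486 UMIs over 17394 barcodes. Of the 43 barcodes found in both libraries none was a member. Doublets were not removed by the rule, and a doublet score that marked 7.5% of the filtered cells of each library marked 3 of 285 and 4 of 223 members. Levels below are given as CPM, UMIs per 1000000 UMIs summed over the cells of a group in a library.

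The genes of the rule are described first, without a test, because they chose the cells. Pi16, a secreted peptidase inhibitor, had 1229 CPM in ATRA+agonist and 1026 CPM in DMSO vehicle members. Sema3c, a secreted guidance protein of the class 3 semaphorins, had 1008 and 958 CPM. Cd248 (endosialin, a membrane glycoprotein of stromal cells) had 615 and 438 CPM. Dpp4, a membrane peptidase, had 320 and 271 CPM. On the log2 scale, ATRA+agonist over DMSO vehicle, these differences were 0.26 (0.18 to 0.34), 0.07 (-0.01 to 0.16), 0.49 (0.38 to 0.61) and 0.24 (0.09 to 0.39), none of which reached 1.5-fold. Outside the members Pi16 had at most 223 CPM, Sema3c at most 72.3, Cd248 at most 108 and Dpp4 at most 43.4 in either other group of either library. Of the genes that mark the other groups, Ccl11 remained at 486 and 608 CPM in members, and Fst at 137 and 80.5 CPM (log2 difference 0.77, 0.51 to 1.04).

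The promoter of Pi16 is shown because this gene names the cells. The RefSeq window runs from 250 bases before to 50 after the start of the transcript on the plus strand of build GRCm38.p6, chr17:29318632-29318931, inside the longer gene that GENCODE M21 places at 29317680 to 29330593 on chromosome 17. Capitals mark matches, on either strand, to TATAAA (core of the TATA box), AGGTCA (core motif of retinoic acid and other nuclear receptors), AGAACA (core motif of the glucocorticoid receptor) and CCAAT (the CCAAT box).

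Pi16: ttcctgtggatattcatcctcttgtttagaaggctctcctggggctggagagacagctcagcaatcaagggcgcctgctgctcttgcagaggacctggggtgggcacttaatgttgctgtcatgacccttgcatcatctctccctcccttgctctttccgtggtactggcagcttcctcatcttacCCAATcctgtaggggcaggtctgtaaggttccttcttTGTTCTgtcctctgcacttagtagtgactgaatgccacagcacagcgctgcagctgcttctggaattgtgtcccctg

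It held 1 match to the glucocorticoid receptor motif, written in its reverse orientation, and 1 to the CCAAT box, and no match to the nuclear receptor or TATA motifs. Of 32851 promoters of the same length 19.0% held the glucocorticoid receptor motif, 37.4% the CCAAT box, 16.3% the nuclear receptor motif and 13.6% the TATA motif. The matches describe letters, not binding.

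Members varied in how strongly they met the rule. The summed UMIs of the 4 marker genes had a median of 26 in ATRA+agonist members and of 19 in DMSO vehicle members, with ranges of 3 to 123 and 3 to 221. All 4 genes had a UMI in 182 of 285 and 116 of 223 members, and 8 and 9 members carried only 1 of them. At the limit itself, 4 and 7 members had exactly 3 UMIs, while 1 and 7 cells had 2 UMIs and would otherwise have been members. A further 13 and 14 mesenchymal cells had enough marker UMIs but tied with another sum. Pi16 had a UMI in 91.6% of ATRA+agonist and 88.8% of DMSO vehicle members, against 1.10% and 1.40% of endothelial cells, which should lack it (median UMIs 3541 and 3757). Dpp4 had a UMI in 73.0% and 69.5% of members and in 0.229% and 1.53% of endothelial cells. After each cell had been thinned to 2000 UMIs these shares of members were 75.4% and 64.1% for Pi16 and 41.5% and 33.2% for Dpp4. In thinned endothelial cells they were 0.580% and 0.591% for Pi16 and 0% and 0.640% for Dpp4. The rule used both genes, so the shares of members describe the selection.

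The label was checked on mesenchymal markers that the rule did not use. Gsn had a UMI in all 285 and all 223 members and Lum in 94.0% and 83.4%, against 0.780% and 1.58% of endothelial cells for Lum. Cd34, which endothelial cells also carry (48.7% and 50.4%), had a UMI in 98.9% and 97.3% of members. Markers of other cell types were near 0: the 6 endothelial markers summed to 30 and 35 UMIs (10.1 and 16.7 CPM, with Kdr and Cldn5 at 0 in the ATRA+agonist members), the 7 immune markers to 86 and 19 UMIs (Cd3e at 0 in both), the 5 mural markers to 32 and 19 UMIs and the 4 muscle stem cell markers to 7 and 9 UMIs. The 4 glial markers summed to 34 and 21 UMIs, and the 5 mesothelial or epithelial markers to 20 and 4 UMIs with Msln, Krt8 and Epcam at 0 in both. Higher sums came from the 5 tenocyte markers, at 124 and 273 CPM, the 5 muscle fiber markers, at 44.3 and 14.8 CPM, and the 5 erythroid markers, at 242 and 818 CPM. The erythroid sum differed in like measure in Cxcl14/Mme progenitors (241 and 826 CPM). The rule itself capped Pecam1 and Cdh5 of the endothelial markers, Ptprc of the immune and Tnmd of the tenocyte markers. Low sums of these 3 lists were thus partly fixed by the rule and are no independent check. Pecam1 alone gave 18 of the 30 and 19 of the 35 endothelial UMIs.

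Beyond the genes of the rule, 161 of 6494 genes with at least 100 UMIs in the members (2.48%) were at least 2-fold higher in members than in each other mesenchymal group in both libraries. These are descriptions, since cells chosen on marker genes carry what those genes go with. The 12 genes with the widest separation included membrane and cytoskeletal proteins, enzymes and secreted factors. Sv2c, a synaptic vesicle glycoprotein, had 72.0 and 70.02 CPM in ATRA+agonist and DMSO vehicle members, against 1.43 and 1.42 CPM in Cxcl14/Mme progenitors and 0.795 and 1.24 CPM in Gdf10/Fst progenitors. Cmah, the enzyme that makes the sialic acid Neu5Gc, had 167 and 171 CPM in members, and at most 6.31 CPM in either other group of either library. Sema3e, another class 3 semaphorin, had 84.2 and 87.2 CPM against at most 4.77 CPM. Limch1, an activator of non-muscle myosin, had 251 and 225 CPM against at most 14.2 CPM, although it was also frequent in endothelial cells, with a UMI in 55.5% and 49.8% of them. Ackr2, a receptor that scavenges inflammatory chemokines, had 42.3 and 38.6 CPM against at most 3.10 CPM. The others were Stmn4, Fam167a, Lurap1l, Krt80 (a keratin), Sbsn, Ano3 and Sytl2, whose members' CPM lay between 34.5 and 83.2.

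**Figure D1:**
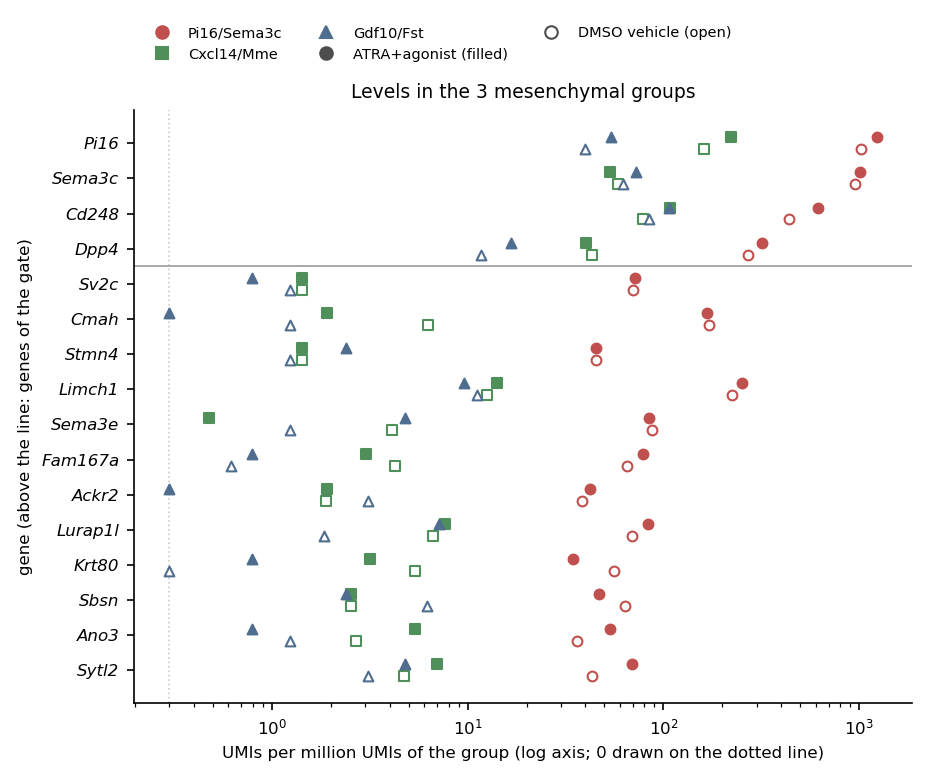
Levels of the 4 gate genes (above the line) and of the 12 genes that separated the members most, as UMIs per 1000000 UMIs of the group on a log axis, in the 3 mesenchymal groups (color and shape) of the ATRA+agonist (filled) and DMSO vehicle (open) libraries. For each of the 12 genes both points of the Pi16/Sema3c progenitors lie to the right of all 4 points of the other groups, with Sv2c at 72.0 and 70.02 against at most 1.43.

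These genes were carried by part of the members. Cmah had a UMI in 44.2% and 41.7% of members, Sv2c in 24.2% and 21.97% and Sema3e in 21.8% and 22.4%, while the shares in endothelial cells were at most 1.62%, 0.0917% and 0.496%. Both libraries gave similar shares, and the counting intervals of the log2 difference between libraries for Sv2c (-0.27 to 0.35), Cmah (-0.23 to 0.17), Stmn4 (-0.39 to 0.40) and Sema3e (-0.33 to 0.23) excluded 1.5-fold in either direction. Krt80 was the gene of the 12 with the largest deficit in ATRA+agonist members (34.5 against 55.7 CPM, log2 difference -0.69, -1.09 to -0.30) and Sytl2 the one with the largest excess (69.3 against 43.3 CPM, 0.68, 0.31 to 1.05). Both passed 1.5-fold between the libraries, though not under every setting described below.

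A list of 36 genes of adventitial progenitors, written with earlier results of these data known, had 26 of its 34 measured genes among those 2-fold higher in members. The list was drawn up for cells of this kind and is no independent evidence. Over all 6494 genes tested 2.48% were higher in members, which is the background for each list count in this paragraph. Examples chosen after their values were seen were Cd55, a complement-inhibiting membrane protein, with 838 and 803 CPM in members and at most 160 CPM in the other mesenchymal groups, and Anxa3, a calcium-dependent phospholipid-binding protein, with 628 and 550 CPM against at most 120 CPM. Anxa3 was also frequent in endothelial cells, with a UMI in 63.3% and 62.9% of them (45.3% and 43.9% when thinned to 2000 UMIs, against 55.6% and 56.1% of thinned members). Limch1, Stmn4, Opcml, Smpd3 and Ugdh of the list were also among the 26. Both the microfibril and the hyaluronan lists contributed: Fbn1, Efemp1, Mfap5, Ltbp1 and Emilin2 of 19 measured microfibril and elastic fiber genes were higher in members, and so were Has1, Has2 and Ugdh of 6 measured hyaluronan genes. Of 18 measured collagen chains none was. Aldh1a3, an enzyme that oxidizes retinal to retinoic acid, was the one gene of 13 measured retinoic acid genes higher in members, at 60.2 and 48.1 CPM against at most 7.63 CPM.

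In the other direction, 129 of 4649 genes with at least 100 UMIs in each other group (2.77%) were at least 2-fold lower in members than in both. Apoe, the lipid carrier, had 98.0 and 64.3 CPM in members against 827 to 1063 CPM in the other groups. Vcam1, an adhesion receptor for leukocytes, had 6.76 and 3.33 CPM against 38.8 to 77.1 CPM. The lowest also held Spon1, Pappa (a protease that cleaves IGF-binding proteins), Mdk and Sfrp1, a secreted Wnt inhibitor with 20.6 and 14.8 CPM against 106 to 147 CPM, all of them chosen after their values were seen. On the list of adipogenic commitment, 7 of 12 measured genes were lower in members and none was higher. Of the retinoic acid list Rbp4, a retinol carrier, and Cyp26b1, which degrades retinoic acid, were lower in members, the latter with 11.2 and 25.7 CPM against 58.3 to 230 CPM.

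Members were a larger share of the mesenchymal cells in the ATRA+agonist library. They were 285 of 1098 mesenchymal cells (26.0%, 23.4% to 28.7%) and in the DMSO vehicle library 223 of 1318 (16.9%, 14.9% to 19.1%), a ratio of 1.53 (1.31 to 1.79). Of all filtered cells they were 3.82% (3.39% to 4.28%) and 2.97% (2.59% to 3.38%), a ratio of 1.29 (1.08 to 1.53). Cxcl14/Mme progenitors were 57.2% and 58.7% of the mesenchymal cells, and Gdf10/Fst progenitors 12.8% and 17.5%. Depth differed with the library, as mesenchymal cells had a median of 9532 UMIs with ATRA+agonist and 7712.5 with DMSO vehicle. With each cell thinned to 2000 UMIs before the gate, members were 16.1% (13.8% to 18.7%) and 9.66% (7.98% to 11.6%) of mesenchymal cells. The rule uses marker levels, and Pi16 and Cd248 were themselves higher per UMI in ATRA+agonist members, so that more cells and more marker RNA per cell cannot be told apart at the limit of the gate.

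**Figure D2:**
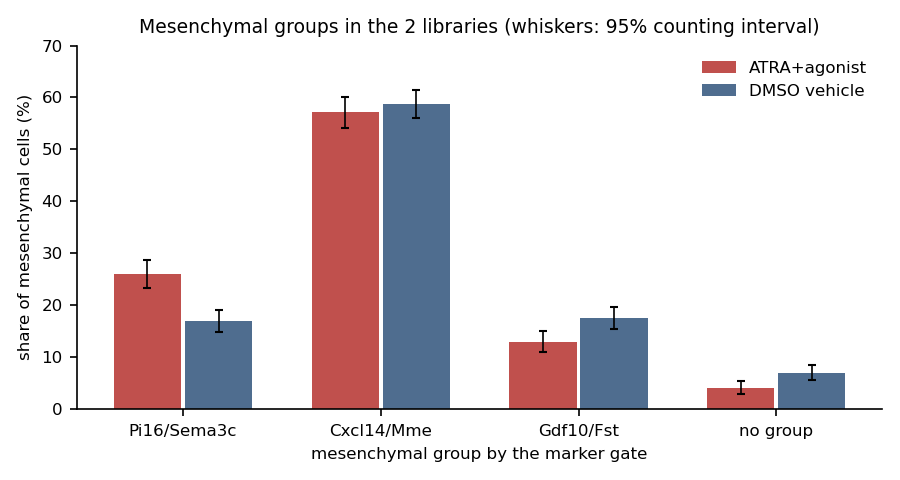
Share of mesenchymal cells (%) in each marker group of the ATRA+agonist (red) and DMSO vehicle (blue) libraries, with whiskers for the exact 95% counting interval. Pi16/Sema3c progenitors stand at 26.0% and 16.9%, the Cxcl14/Mme progenitors at 57.2% and 58.7%, and the Gdf10/Fst progenitors at 12.8% and 17.5%.

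Gene levels in the members were then compared between libraries. Of 6506 genes with at least 100 UMIs over both libraries, 216 (3.32%) were at least 1.5-fold higher and 191 (2.94%) at least 1.5-fold lower in the ATRA+agonist members, around a median log2 difference of 0.02. The higher genes were 53.1% of those called, 63.5% without the hemoglobin filter on cells, 40.3% with each cell thinned to 2000 UMIs and 36.9% with a minimum of 300 UMIs per gene, so that the balance turned with the setting. No replicate stands behind these calls, and genes are called on the size of the difference alone. The 3.32% and 2.94% are the background for each list count below, and the lists were written with earlier results of these data known. Of the 67 genes named by rule that passed 1.5-fold, 46 did so under all 13 other settings of the gate and of the scaling. The other 21 fell short of it in at least 1 setting. They are called near the limit where they are named, except Krt80, Sytl2, Plxna1 and Hspb1, whose dependence on the setting is given there. Near the limit can cover wide moves. For genes so called, the log2 differences smallest in size were 0.11 for Adamts4, 0.17 for Apoe, 0.24 for Mfap4 and -0.25 for Rdh10. Next came -0.30 for Cxcl13, 0.32 for Arntl, -0.38 for Aldh1a2 and 0.39 for both Cxcl9 and Ndufs1.

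Among the genes with 200 or more UMIs whose sign held in thinned and in equally weighted cells, the widest excess was that of Hpse2, which binds heparan sulfate and antagonizes heparanase, with 70.3 CPM against 14.3 CPM (log2 difference 2.30, 1.74 to 2.90). Its UMIs came from few cells, 27 and 11, and 5 cells held 67.8% of them in the ATRA+agonist library. Fam155a, an auxiliary protein of a sodium leak channel, had 61.5 against 13.8 CPM (2.16, 1.58 to 2.77). It lay in 34 and 11 members, and in DMSO vehicle 5 of them held 72.4% of its UMIs. Ntrk3, the receptor of neurotrophin-3, had 68.3 against 20.01 CPM (1.77, 1.29 to 2.29). Fgf10, a growth factor that mesenchyme sends to epithelia, had 61.5 against 18.6 CPM (1.73, 1.22 to 2.27) and was carried by 51 and 21 members. Its log2 differences in Cxcl14/Mme and Gdf10/Fst progenitors were -0.28 (-0.67 to 0.11) and 0.16 (-0.29 to 0.61). Lsamp, Negr1 and Opcml belong to the same family of membrane-anchored cell adhesion proteins. Lsamp had 229 against 77.6 CPM (1.56, 1.31 to 1.82), Negr1 242 against 113 CPM (1.10, 0.89 to 1.32) and Opcml, a gene of the adventitial list outside the 10 widest, 955 against 574 CPM (0.73, 0.64 to 0.83). Trhde (1.39), Ldb2 (1.24), Gucy1a2 (1.18) and the protocadherin gene Pcdh9 (1.16) completed the 10 widest. In DMSO vehicle Trhde lay in 15 members, 5 of which held 67.4% of its UMIs. With each cell thinned to 2000 UMIs, Hpse2, Fgf10 and Trhde gave 1.32, 1.14 and 0.60, while Fam155a and Ldb2 gave 2.97 and 2.04. Fmo2, among the deficits, gave -0.74.

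Of these 10 genes 9 span more than 300 kb in the annotation, Fgf10 being the other at 122 kb. Such spans belong to 4.23% of the genes tested. Among the 275 tested genes over 300 kb, 9.45% were higher and 4.73% lower in ATRA+agonist members, and their median log2 difference was 0.05. Reads from introns can be counted in libraries of this kind, and the part of gene length in these differences was not tested. Malat1, a nuclear RNA, had 17140 CPM in ATRA+agonist and 20184 CPM in DMSO vehicle members. In Cxcl14/Mme progenitors it had 22333 and 22623 CPM, and its relation to the gene spans was not tested. Mitochondrial RNA was 2.20% and 2.04% of the members' UMIs and ribosomal protein RNA 14.1% in both.

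**Figure D3:**
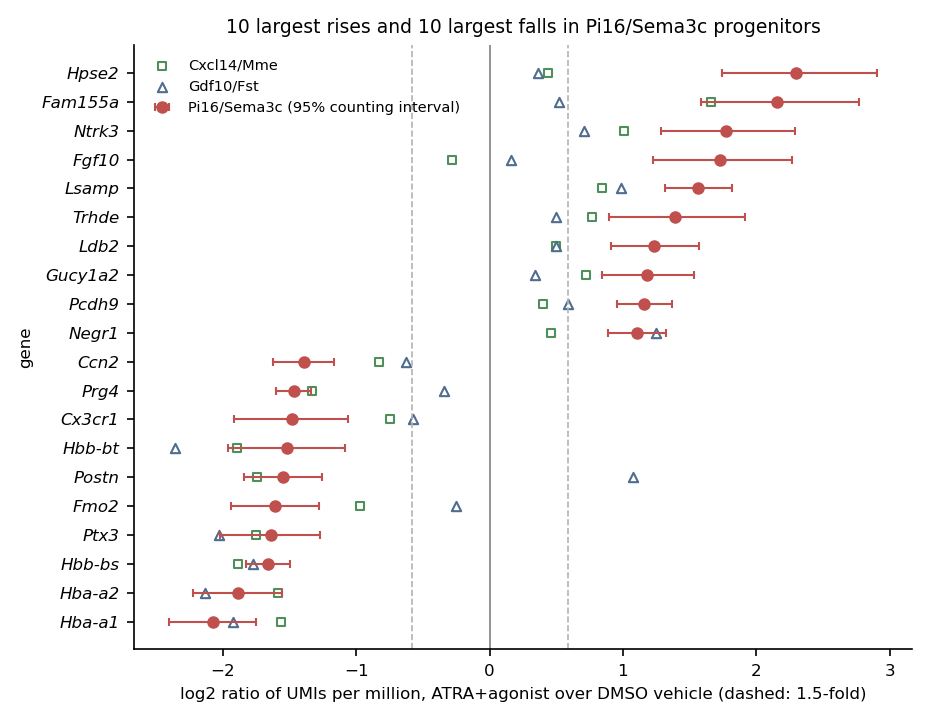
Log2 ratio of CPM, ATRA+agonist over DMSO vehicle, for the 10 genes with the widest excess and the 10 with the widest deficit in Pi16/Sema3c progenitors among genes with at least 200 UMIs whose sign held in thinned and equally weighted cells (red, with 95% counting intervals), beside the same ratio in Cxcl14/Mme (green squares) and Gdf10/Fst progenitors (blue triangles); dashed lines mark 1.5-fold. Of the genes plotted Hpse2 leads at 2.30 and Hba-a1 ends at -2.07, and Postn is the gene whose Gdf10/Fst point (1.07) lies on the other side of 0 from its member point (-1.55).

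Among genes with at least 200 UMIs and a sign held in thinned and equally weighted cells, 4 of the 10 widest deficits were those of hemoglobin genes. Wider deficits rested on fewer UMIs, as in Mrgprg, named after its value was seen (-4.58, 11 against 187 UMIs), and Fmod, described with the matrix genes. Hba-a1 had 36.2 CPM in ATRA+agonist and 152 CPM in DMSO vehicle members (log2 difference -2.07, -2.40 to -1.75), and Hbb-bs 148 and 468 CPM (-1.66). Hba-a2 and Hbb-bt gave -1.89 and -1.52. The filter on cells used the Hbb- genes, and without it Hbb-bs and Hbb-bt gave -2.51 and -3.83. Hemoglobin was 0.0242% and 0.0817% of the members' UMIs, and it differed in like measure in the other mesenchymal groups and in endothelial cells, where Hbb-bs had a UMI in 61.9% and 93.5% of cells.

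The other 6 of the 10 deficits were Prg4, Ptx3, Ccn2, Postn, Fmo2 and Cx3cr1. Prg4, which encodes the lubricant lubricin, had 247 CPM against 684 CPM (-1.47, -1.60 to -1.34), and a UMI in 106 of 285 against 119 of 223 members. In thinned cells the shares with Prg4 were 21.1% and 39.5% of members and 13.7% and 9.66% of endothelial cells. Ptx3, a soluble pattern recognition protein induced by inflammation, had 29.8 against 92.9 CPM (-1.64, -2.02 to -1.27). Its UMIs lay in 26 and 36 members, and 5 cells held 53.4% and 45.6% of them. Ccn2, a matricellular target of TGF-beta and of mechanical signals, had 82.8 against 218 CPM (-1.39, -1.62 to -1.17). Postn, a matrix protein of fibroblasts under tension or repair, had 49.4 against 144 CPM (-1.55, -1.84 to -1.26), but it rested on 27 and 21 cells, and in DMSO vehicle 5 of them held 79.5% of the UMIs. With no lineage UMI allowed at the gate its difference was -0.80. Fmo2, a flavin monooxygenase, and Cx3cr1, the receptor of fractalkine, gave -1.61 and -1.48. Cx3cr1 had a UMI in 15.4% and 25.1% of members and in 9.31% and 18.9% of endothelial cells, but with each cell thinned to 2000 UMIs in 4.93% and 6.73% of members and 5.91% and 11.03% of endothelial cells, so that its share in members was not above that background.

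The main fibrillar collagens were higher in ATRA+agonist members. Of 18 measured collagen chains 4 passed 1.5-fold upward and 1 downward, with 15 above 0 and a median log2 difference of 0.37, beside 0.02 over all genes. Over all 6506 genes 3.32% passed upward and 2.94% downward. Col3a1, the chain of type III collagen, had 2758 CPM against 1576 CPM (0.81, 0.75 to 0.87). Col1a2 and Col1a1, which together form type I collagen, had 1588 against 949 CPM (0.74, 0.67 to 0.82) and 1104 against 694 CPM (0.67, 0.58 to 0.76, near the limit). Col15a1 had 122 against 80.0 CPM (0.61, 0.34 to 0.88, near the limit). The 1 chain that was lower, named after its value was seen, was Col12a1 of a fibril-associated collagen, which had 38.5 against 76.2 CPM (-0.98, -1.34 to -0.63). The other groups showed an excess too: Col3a1 gave 0.76 and 1.20 in Cxcl14/Mme and Gdf10/Fst progenitors and the medians of the list there were 0.33 and 0.46.

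The promoters of Col1a2 and Col3a1 are shown because these chains differed in the same direction by like amounts. Both are on the plus strand of GRCm38.p6, at chr6:4505368-4505667 and chr1:45311288-45311587, and the start of Col3a1 falls on the first base of the gene in GENCODE M21 (45311538). Capitals mark the same motifs as above.

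Col1a2: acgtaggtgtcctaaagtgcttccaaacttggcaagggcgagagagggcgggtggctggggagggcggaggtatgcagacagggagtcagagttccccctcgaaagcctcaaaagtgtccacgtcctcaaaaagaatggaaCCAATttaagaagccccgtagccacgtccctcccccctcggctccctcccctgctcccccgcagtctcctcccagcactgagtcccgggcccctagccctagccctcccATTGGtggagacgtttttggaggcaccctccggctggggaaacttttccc

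Col3a1: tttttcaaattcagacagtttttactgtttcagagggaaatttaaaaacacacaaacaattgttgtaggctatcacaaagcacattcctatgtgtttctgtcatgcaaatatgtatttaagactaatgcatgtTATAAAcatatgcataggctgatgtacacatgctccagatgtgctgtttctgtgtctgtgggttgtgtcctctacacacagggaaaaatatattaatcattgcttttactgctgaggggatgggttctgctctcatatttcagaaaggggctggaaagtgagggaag

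Col1a2 held 2 matches to the CCAAT box and Col3a1 held 1 match to the TATA motif. Neither held the nuclear receptor motif within these 300 bases.

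Other matrix genes gave fewer calls. Of 19 measured genes of elastic fibers and microfibrils 1 was higher and 1 lower: Mfap4, a microfibril protein, had 73.0 against 41.4 CPM (0.82, 0.45 to 1.19, near the limit), and Lox, the enzyme that crosslinks collagen and elastin, had 42.9 against 100.03 CPM (-1.22, -1.55 to -0.90). Of 7 measured small leucine-rich proteoglycans none was higher, and Fmod alone was lower (6.42 against 55.7 CPM, -3.12, -3.90 to -2.41). Fmod lay in 3 and 6 cells only and is also a marker of tenocytes. It is itself part of the summed tenocyte markers given above, so that its deficit and theirs are not separate observations. The part of tenocytes in the difference was not tested. Among 22 measured matrix proteases and inhibitors, Timp1 (0.72) and Adamts4 (0.75), both near the limit, and Adamts15 (1.40, 0.78 to 2.06) were higher and none was lower. The hyaluronan list had the lowest median, -0.49 over 6 genes: Ugdh, which makes the precursor UDP-glucuronate, had 845 against 1331 CPM (-0.66, -0.73 to -0.58, near the limit), and the synthases Has1 (-0.57) and Has2 (-0.58) fell just short of 1.5-fold.

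The adventitial genes, most of which separated the members, lay evenly around 0 between the libraries. Over 34 measured adventitial genes the median was -0.01, with 2 higher, 3 lower and 17 on each side of 0. Opcml and Thy1 were the higher ones, the latter, named after its value was seen, a glycoprotein of the cell surface with 228 against 118 CPM (0.95). Prg4, Ugdh and Smpd3, a sphingomyelinase (163 against 273 CPM, -0.75, -0.93 to -0.57), were the lower ones.

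The signaling lists are given beside 3.32% higher and 2.94% lower over all 6506 genes. On the list of BMP and TGF-beta signaling, none of 23 measured genes was higher and 3 were lower, with a median of -0.15. They were Ccn2, Inhba (a subunit of activin, 34.1 against 70.5 CPM, -1.05, -1.43 to -0.67) and Smad7, a feedback inhibitor of the pathway (40.6 against 68.6 CPM, -0.76, -1.12 to -0.40). Inhba gave 0.32 in Cxcl14/Mme progenitors. Id1 and Id3, targets of BMP signaling, had 12.8 and 8.10 CPM (0.67, -0.19 to 1.58) and 265 and 296 CPM (-0.16, -0.31 to -0.01). On the Wnt list 2 of 13 genes were higher and none lower: Wnt5a, a ligand of the non-canonical pathway, with 71.3 against 37.6 CPM (0.92, 0.54 to 1.31), and Sfrp2, a secreted modulator, with 43.3 against 10.96 CPM (1.98, 1.33 to 2.69) in 48 and 10 cells.

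Growth factors had the second highest median, 0.32 over 14 measured genes. Under other settings this median ran from 0.08 to 0.46. It was 0.31 in Cxcl14/Mme and 0.25 in Gdf10/Fst progenitors. Of the 14 genes 4 were higher and none lower in the members, against 3.32% and 2.94% over all 6506 genes. Beside Fgf10 these were Angpt1, a ligand that stabilizes vessels (74.0 against 41.0 CPM, 0.85, 0.49 to 1.23), Ntf3, neurotrophin-3 itself (36.9 against 16.7 CPM, 1.14, 0.58 to 1.74), and Angptl7 (33.1 against 14.8 CPM, 1.17, 0.57 to 1.80). Ntf3 and its receptor Ntrk3 were thus both higher in ATRA+agonist members. Among 15 chemokines and cytokines, Cxcl9, a chemokine induced by interferon-gamma, was higher (1.02, 0.41 to 1.68) and Cxcl13, which attracts B cells, lower (-0.69, -1.03 to -0.36), both near the limit and both resting on at most 24 cells per library. In the complement list of 10 genes C4b was lower (72.0 against 148 CPM, -1.04, -1.30 to -0.78) and Vtn, vitronectin, higher (0.74, 0.26 to 1.23). Plxna1, a semaphorin receptor, was the one of 5 genes on the semaphorin list past 1.5-fold (0.72, 0.29 to 1.15), and its sign turned when cells were thinned (-0.20). No gene of the IGF list of 7 passed, with Igfbp5 at 2160 and 2280 CPM (-0.08) and Igfbp6 at 2065 and 1490 CPM (0.47).

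Of 12 measured genes of adipogenic commitment 3 were higher and 3 lower. Cebpd, a transcription factor of early adipogenesis, had 675 against 1117 CPM (-0.73, -0.81 to -0.64). F3, tissue factor, gave -0.67, while Lpl, lipoprotein lipase, and Apoe gave 0.59 and 0.61, all 3 near the limit. The remaining calls, named after their values were seen, were Lepr, the leptin receptor (44.3 against 27.6 CPM, 0.68, 0.22 to 1.15), and Fabp4, a fatty acid carrier of adipocytes and capillary endothelium (15.9 against 58.6 CPM, -1.88, -2.40 to -1.39). The median of the list was -0.25, beside -0.24 in Cxcl14/Mme and 0.13 in Gdf10/Fst progenitors.

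The retinoic acid pathway is the one the agents address. Muscles were taken 3 days after the last injection, and earlier times were not measured. Of 13 measured genes none was higher and 2 were lower, with a median of -0.09 and 5 above 0. Over all 6506 genes 3.32% were higher and 2.94% lower. The 2 encode consecutive enzymes that make retinoic acid from retinol. Rdh10, which oxidizes retinol to retinal, had 56.8 against 87.6 CPM (-0.63, -0.94 to -0.32), and Aldh1a2, which oxidizes retinal to retinoic acid, had 45.0 against 72.4 CPM (-0.69, -1.03 to -0.34). Both were near the limit, with differences as small in size as -0.25 for Rdh10 and -0.38 for Aldh1a2 under other settings. In Cxcl14/Mme progenitors Rdh10 and Aldh1a2 gave -0.02 and -0.22. In Gdf10/Fst progenitors they gave -1.28 and -0.28, from 16 against 50 and 9 against 14 UMIs. Aldh1a3, the member-enriched enzyme of the last step, had 60.2 and 48.1 CPM (0.32, -0.04 to 0.69). Stra6, the retinol uptake receptor, was barely counted, with 7 and 4 UMIs in 2 and 1 members. Cyp26a1, a degrading enzyme that retinoic acid induces in many cells, had no UMI in 285 and 223 members, which allows shares of up to 1.05% and 1.35% of members with a UMI (3 counts of the total, a one-sided limit). The upper ends of the Clopper-Pearson intervals were 1.29% and 1.64%.

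Several genes that glucocorticoids induce were lower in ATRA+agonist members. Of 12 measured genes 3 were lower and none higher, with a median of -0.38 and 9 below 0. Over all 6506 genes 2.94% were lower and 3.32% higher. Zbtb16, a transcription factor, had 179 against 345 CPM (-0.95, -1.11 to -0.78). Fkbp5, a chaperone that dampens the glucocorticoid receptor, had 94.3 against 165 CPM (-0.81, -1.04 to -0.57), and Tsc22d3 (GILZ) had 59.8 against 107 CPM (-0.83, -1.13 to -0.54). The same 3 genes gave -1.23, -0.78 and -1.08 in Cxcl14/Mme progenitors. The promoter of Fkbp5 is shown as that of the gene in this group with an entry of its own, on the minus strand of GRCm38.p6 at chr17:28486100-28486399, within the gene of GENCODE M21 (28399094 to 28517527).

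Fkbp5: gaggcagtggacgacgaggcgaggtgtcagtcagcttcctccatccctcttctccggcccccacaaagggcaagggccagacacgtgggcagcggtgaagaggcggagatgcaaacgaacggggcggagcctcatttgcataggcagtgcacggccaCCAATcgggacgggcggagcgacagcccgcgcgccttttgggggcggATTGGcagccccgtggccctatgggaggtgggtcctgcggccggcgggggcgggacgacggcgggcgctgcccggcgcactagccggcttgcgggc

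It held 2 matches to the CCAAT box and none to the other motifs in this window.

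Metallothioneins, which bind zinc and copper, were lower without reaching 1.5-fold: Mt1 had 1079 and 1397 CPM (-0.37, -0.45 to -0.30) and Mt2 484 and 665 CPM (-0.46, -0.56 to -0.35). In Cxcl14/Mme progenitors these genes gave -0.92 and -0.87, and in Gdf10/Fst progenitors -0.89 and -0.83. All 5 measured genes of this list were below 0 in the members.

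Some clock, stress and interferon genes passed 1.5-fold, beside 3.32% higher and 2.94% lower over all 6506 genes. Of 14 clock genes, Npas2 (82.8 against 52.4 CPM, 0.66) and Arntl (65.9 against 41.9 CPM, 0.65, near the limit), which encode partners of the activating arm, were higher, and Hlf, an output gene, was lower (21.0 against 57.6 CPM, -1.46, -1.92 to -1.01). Of 22 immediate early genes, Nr4a1 (-0.71, near the limit) and Myc (-0.72) were lower and none was higher. Hspb1 was the one lower gene of 14 heat shock genes (-0.69), with its sign turned by thinning (0.06). Among 30 interferon genes, Iigp1, an interferon-induced GTPase, had 567 against 992 CPM (-0.81, -0.90 to -0.71), Ifit1 100 against 218 CPM (-1.12, -1.34 to -0.91) and Ifit2 37.2 against 23.3 CPM (0.67, near the limit). The median of the interferon list was -0.01.

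Metabolic genes differed little between the libraries. Of 76 measured nuclear genes of oxidative phosphorylation 62 were above 0, with a median of 0.13. Over all 6506 genes 3466 were above 0, with a median of 0.02. The median of this list was 0.05 in Cxcl14/Mme and 0.10 in Gdf10/Fst progenitors. In the members only Ndufs1 of the list passed 1.5-fold (32.5 against 21.0 CPM, 0.63, near the limit). Fatty acid oxidation (17 genes, median 0.12), antioxidant genes (23, -0.03), the cell cycle list (7, 0.13) and annexins and S100 proteins (15, 0.07) had none past it. Etfa and Etfb gave 0.04 and 0.30, Txn1 and Gstm1 -0.06 and 0.15, Cdkn1a and Cdkn1c -0.39 and 0.18, and S100a6 and Anxa1 -0.04 and 0.39. Sirt2, a deacetylase, had 57.1 and 51.9 CPM (0.14, -0.22 to 0.50), and Rock2, a kinase that acts on the cytoskeleton, 614 and 638 CPM (-0.05, -0.16 to 0.05).

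**Figure D4:**
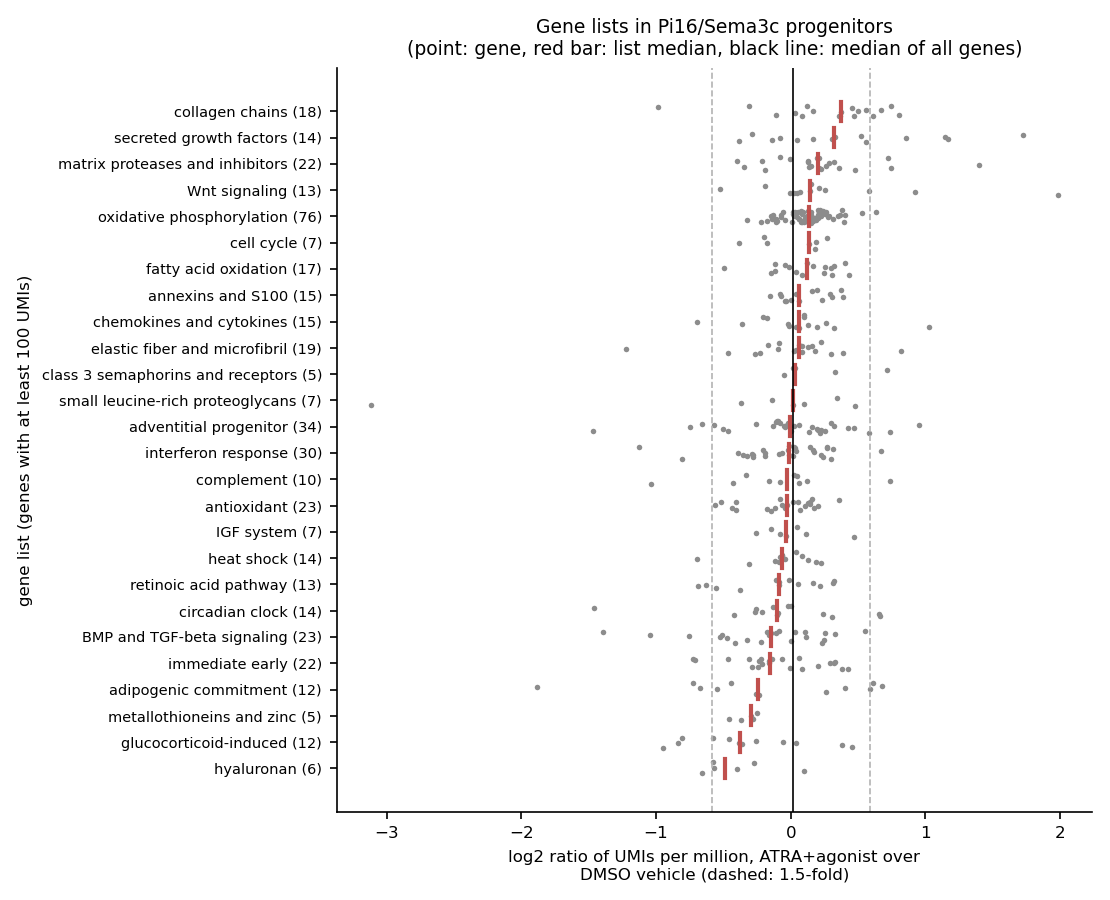
Log2 ratio of CPM, ATRA+agonist over DMSO vehicle, in Pi16/Sema3c progenitors for every measured gene of 26 lists (gray points; number of genes in parentheses), with the list median as a red bar, the median of all 6506 genes (0.02) as a black line and 1.5-fold as dashed lines. Collagen chains have the highest median (0.37) and the hyaluronan genes the lowest (-0.49).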

How the data were processed

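Viable cells of hindlimb muscle, sorted on propidium iodide, were profiled with droplet-based RNA-Seq in 1 ATRA+agonist and 1 DMSO vehicle library. The authors aligned the reads to mm10 and deposited UMI counts per gene and barcode from Cell Ranger 7.2.0. Whether intronic reads were counted is not given in the sources used here. The extract protocol in the labels describes other, bulk libraries. The authors' cell filters were applied here without their doublet removal, which was an alternative.

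UMIs were summed per library and group and scaled to CPM. Log2 ratios have exact 95% binomial intervals, and shares have Clopper-Pearson intervals; both cover counting error only. With 1 library per group no test was run. Genes needed 100 UMIs over both libraries and were called at 1.5-fold (2-fold between groups). Cells were thinned to 2000 UMIs where stated. The genes named were those of the rule; the 10 widest excesses and 10 widest deficits among genes with at least 200 UMIs and the same sign in thinned and equally weighted cells; the 12 non-rule genes with at least 200 UMIs that separated the members most; up to 4 genes per list with the most UMIs past 1.5-fold, or 2 where none passed; and Id1, Id3, Sirt2, Rock2, Mt1, Mt2 and Stra6, which the study singles out. Other genes were named after their values were seen. Members and lists were chosen with earlier results of these data known. Promoters came from RefSeq (GRCm38.p6) and positions from GENCODE M21. The gene table step was checked on simulated counts. Python 3.11.15 was used.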

Additional observations from a re-analysis of the deposited data

Results flagged for a closer look

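Among the named genes, 2 differed by at least 1.5-fold in opposite directions in the members and in another mesenchymal group, with at least 100 UMIs in each. Postn was lower in ATRA+agonist members (log2 difference -1.55, -1.84 to -1.26) and higher in ATRA+agonist Gdf10/Fst progenitors (1.07, 0.68 to 1.47, from 146 UMIs against 89). It had a UMI in only 12 of 141 and 9 of 230 Gdf10/Fst progenitors, and in 27 and 21 members. Angptl7 was higher in members (1.17, 0.57 to 1.80) and lower in Cxcl14/Mme progenitors (-1.25), with 33.1 against 14.8 CPM and 21.3 against 50.7 CPM. In members Angptl7 rested on 22 and 21 cells, 5 of which held 50% and 48.4% of its UMIs. In Gdf10/Fst progenitors Angptl7 had 3 against 32 UMIs (-3.05, -5.41 to -1.38). Opposite signs with smaller differences, and counting intervals that left out 0, also occurred, as for Ifit1 (-1.12 in members, 0.54 in Gdf10/Fst progenitors), Inhba (-1.05 in members, 0.32 in Cxcl14/Mme progenitors), Apoe (0.61 in members, -0.30 and -0.21 in Cxcl14/Mme and Gdf10/Fst progenitors) and Vtn (0.74 in members, -0.33 in Cxcl14/Mme progenitors). With 1 library per group no difference between the groups was tested.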

How the results depend on the processing

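The ratio of the members' shares of mesenchymal cells lay between 1.49 and 1.57 under 9 other settings of the gate and was 1.67 with the gate on thinned cells. The counts of called genes followed the depth required. With each cell thinned to 2000 UMIs, 1826 genes were tested, of which 54 were higher (20 shared with the main calls) and 80 lower (31 shared) with ATRA+agonist, and 81 were higher and 36 lower in members. With a minimum of 30 UMIs the counts were 724 and 528, and 275 lower in members (9944 genes tested). With a minimum of 300 UMIs they were 45 and 77, with 106 higher and 55 lower in members (3012 genes tested). Plxna1 (-0.20) and Hspb1 (0.057) turned sign in thinned cells; the cause was not tested. With every cell weighted alike 246 genes were higher, 176 of them shared with the main calls, and 253 lower, 174 shared. Leaving out genes over 300 kb, an alternative chosen after seeing the data, left 190 higher and 178 lower. Of 26 list medians 15 moved by over 0.1 under at least 1 of 15 alternatives. Between libraries, genes under 100 UMIs have wide counting intervals. No paired analysis was possible because each group is 1 library with no replicate number.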
